A study of Mus musculus with 6 samples.

Results

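The 98 genes described here are the nuclear genes of oxidative phosphorylation that the arrays measure: those whose symbol begins with Nduf, Uqcr, Atp5 or Cox and a number, together with Sdha, Sdhb, Sdhc and Sdhd. They were taken by the platform's gene symbols and not by a measured difference, though the set was chosen with earlier results of these data known. Each gene was read from its probe set of highest mean level across the 6 arrays. The members are 98 of 18193 genes with a probe set that names 1 gene. Of the 98, 95 had a level above the median probe set, the exceptions being Ndufb4, Cox7b2 and Cox7a1. By complex they fall into 36 genes of complex I, 4 of complex II, 8 of complex III, 17 of complex IV and 17 of complex V, with 16 assembly factors that build complexes I and IV. In all, 197 probe sets name a member alone, and 11 more name a member together with other genes and were left out. Cox7b was not analysed here.

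Oxidative phosphorylation takes place in the inner mitochondrial membrane. Complexes I and II pass electrons from NADH and succinate to ubiquinone, complex III passes them on to cytochrome c and complex IV to oxygen, and complexes I, III and IV pump protons whose return through complex V, the ATP synthase, drives the making of ATP. A few subunits of complexes I, III, IV and V are encoded in mitochondrial DNA, while the genes here lie in the nucleus, and some subunits of complex IV exist as separate genes for muscle, testis and other tissues.

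Back skin was dissected from mouse embryos at E15.5 and total RNA was hybridised to Affymetrix MOE430 2.0 arrays, 3 from Fzd6+/- embryos (control) and 3 from Fzd6-/- embryos (knockout), all of a mixed C57BL6/129 background. Fzd6 encodes a Frizzled receptor of planar cell polarity, and the comparison shows which transcripts of the skin differ when the remaining copy is also lost. The controls carry 1 mutant copy, so there is no wild-type group. Labels and design text speak of biological replicates and independent samples but do not say whether a sample is 1 embryo or several, so p-values measure the spread between these samples. Whole back skin holds epidermis, dermis, vessels, blood and some muscle, and a lower value can mean fewer cells of a type or less RNA per cell, which cannot be told apart.

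Values are array levels on a log2 scale, so a difference of 1 is a doubling, and differences are knockout minus control. The array medians ran from 5.99 to 6.03. The Fzd6 probe set with the highest level read 9.504, 9.512 and 9.114 in control and 9.071, 9.012 and 8.714 in knockout (difference -0.44, 95% interval -0.78 to -0.11), and a dimmer one had means of 6.13 and 5.46 (difference -0.67, interval -0.87 to -0.47, unadjusted p = 7.6e-05 by limma, adjusted p = 0.864). A further Fzd6 probe set differed by -0.0097, and the place of the probes relative to the deletion is not known here. Over 45037 probe sets, limma called 0 at an adjusted p under 0.05 (0%), while 5.21% had an unadjusted p under 0.05, 2.58% with higher values in knockout, and in 11.6% the groups did not overlap. With the replicate number as a block, 12% had an unadjusted p under 0.05 and 3 probe sets (0.00666%), none of a member, had an adjusted p under 0.05.

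The respiratory chain and ATP synthase genes were at nearly the same level in both genotypes. Of the 98 members, 56 had higher and 42 lower values in knockout (57.1% higher), and the median difference was 0.0087 beside 0.0070 over all 18193 genes. With each array centred on its own median, 68 were higher. The difference was within 0.1, a 1.07-fold change, for 89 members and for 10409 of all 18193 genes, and the median size of the difference was 0.036 beside 0.084 over all genes. The members are brighter than most genes (mean level in control 1 of 11.2, beside 7.139), and genes of like brightness were not compared. No member passed the adjusted threshold in limma, where the lowest adjusted p was 0.909. Only Ndufa4l2, 1 member, had an unadjusted p under 0.05, which is 1.02% of members beside the 5.21% of all probe sets given above. In 3 members, 3.06% beside 11.6%, every knockout array lay above every control array: Ndufa4l2, Cox4i2 and Cox5a.

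These data bound the differences as well as estimate them. The 95% interval lay inside -0.5 to 0.5, which is 0.707-fold to 1.41-fold, for 95 of the 98 members, and for 14557 of all 18193 genes. The members with wider intervals were Ndufa4l2, Cox6a2 and Cox8b. The median half-width of the interval was 0.259, or 1.20-fold, so a shift of a few percent in a single member was not detectable with 3 arrays a group.

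**Figure D1:**
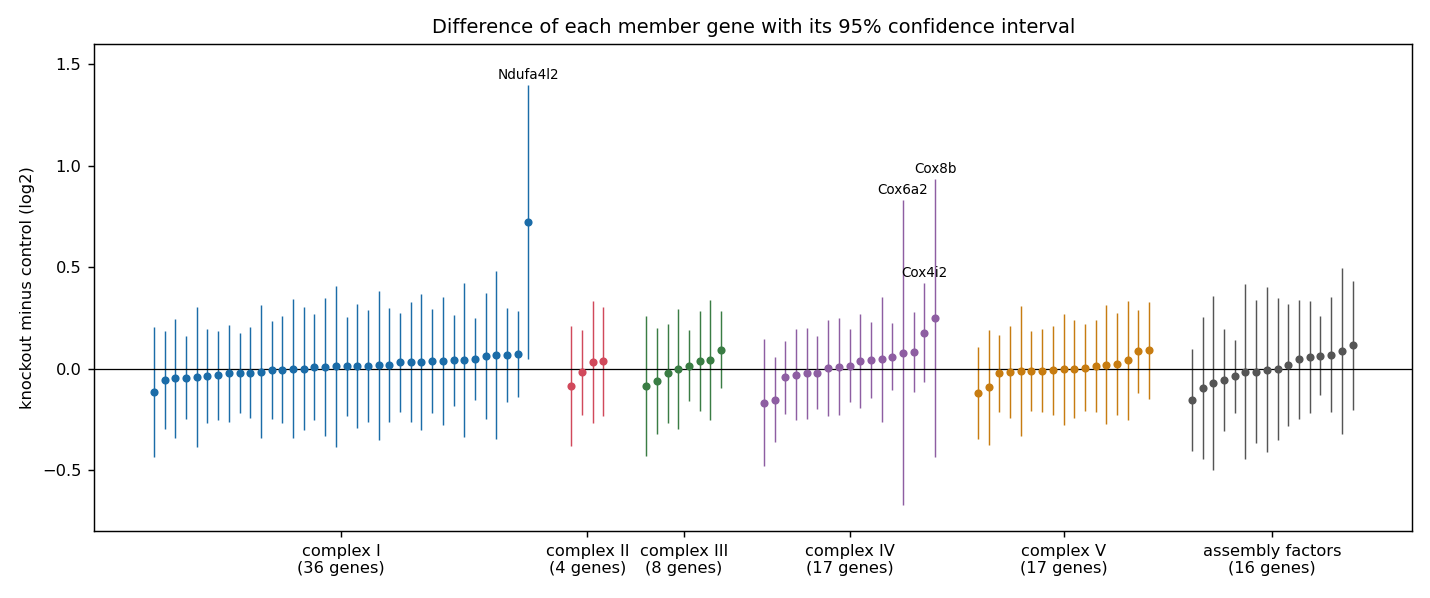
Difference between knockout and control (log2, vertical axis) for each of the 98 member genes, grouped by complex along the horizontal axis and ordered by size within it; points are the limma estimates and bars their 95% confidence intervals. All intervals but that of Ndufa4l2 (0.05 to 1.40) cross 0, and 89 points lie within 0.1 of it.

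Complex I, which oxidises NADH, had 23 of its 36 members with higher and 13 with lower values, with a median difference of 0.013. Among the 7 members of its NADH-oxidising arm, 4 were higher and 3 lower. Ndufs1, the large iron-sulfur subunit there, read 10.17, 9.89 and 9.93 in control and 10.15, 9.72 and 9.78 in knockout (difference -0.11, interval -0.44 to 0.21, limma adjusted p = 0.949). The groups overlapped, with array 1 highest in both. Ndufv1, which binds NADH and flavin, differed by 0.02 (interval -0.35 to 0.38). In the ubiquinone-reducing part 6 of 7 members were higher, by at most 0.07 for Ndufs3 (interval -0.14 to 0.29). All 20 members of the proton-pumping membrane arm differed by less than 0.1, among them Ndufb11 at -0.04 (interval -0.38 to 0.31). Ndufb4, also of this arm, lay at 3.96 to 4.34 on the 6 arrays, below the median probe set at 6.02, and differed by -0.05 (interval -0.34 to 0.25).

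Ndufa4l2 stood apart from the rest. It encodes a relative of Ndufa4 whose transcript is known to be induced by low oxygen, and the platform's symbol places it under complex I although Ndufa4 itself is now counted with complex IV. Ndufa4l2 read 8.56, 9.66 and 9.60 in control and 10.26, 9.88 and 9.85 in knockout. The groups did not overlap, and control 1 lay far below the other 5 arrays. The means were 9.27 ± 0.62 and 9.99 ± 0.23 (SD, n = 3 each), a difference of 0.72 (interval 0.05 to 1.40) or 1.65-fold (1.04 to 2.63), with an unadjusted p of 0.038 and an adjusted p of 0.909 by limma. Array against array of the same replicate number, the difference was 1.70 for number 1, 0.22 for number 2 and 0.25 for number 3. Without control 1 it was 0.37 (unadjusted p = 0.041 in limma). Without both arrays of number 1, an alternative chosen after seeing the data, it was 0.24 (unadjusted p = 0.036 in limma). It lost the unadjusted threshold without knockout 1 (0.59), without knockout 2 (0.78) and without knockout 3 (0.80). Its only single-gene probe set is this one. Ndufa4 itself read 12.73, 12.40 and 12.77 in control and 12.72, 12.54 and 12.68 in knockout, a difference of 0.02 (interval -0.26 to 0.29).

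Over 9 endothelial and pericyte markers the median deviation from each gene's mean was -0.409, 0.435 and 0.257 in control arrays 1 to 3 and -0.658, 0.275 and 0.431 in knockout. Within control, array 1 was the lowest for the vessel markers and for Ndufa4l2, while in knockout array 1 was the lowest for the markers and the highest for Ndufa4l2. Adipoq, the fat-cell hormone adiponectin, read 8.64 in control 1 and 3.32 to 3.48 on the other 5 arrays. The part of either in the Ndufa4l2 difference was not tested.

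Complex II, succinate dehydrogenase, had 2 members with higher and 2 with lower values. Its flavoprotein Sdha read 10.88, 10.71 and 10.44 in control and 10.70, 10.59 and 10.48 in knockout (difference -0.08, interval -0.38 to 0.21). The iron-sulfur subunit Sdhb differed by 0.04, and the membrane anchors Sdhc and Sdhd by 0.03 and -0.02. All 4 ranges overlapped between genotypes.

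In complex III 4 members were higher and 4 lower, with a median of 0.0080. The core protein genes Uqcrc1 and Uqcrc2 and the Rieske iron-sulfur protein gene Uqcrfs1 had differences of 0.04, 0.04 and 0.02. Of the 5 small subunits 4 had lower values. The exception, Uqcrb, a ubiquinone-binding subunit, read 13.88, 13.72 and 13.85 in control and 13.93, 13.87 and 13.94 in knockout (difference 0.09, interval -0.10 to 0.28, limma adjusted p = 0.929). Uqcrh, the hinge protein, differed by -0.08 (interval -0.43 to 0.26).

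Complex IV, cytochrome c oxidase, had 11 members with higher and 6 with lower values and a median of 0.016. Its 10 general subunits split 5 and 5. Among the broadly expressed isoforms, Cox4i1 differed by -0.04 (interval -0.22 to 0.14), Cox6a1 by 0.02 (-0.16 to 0.20), Cox6b1 by 0.01 (-0.23 to 0.25), Cox7a2 by 0.01 (-0.23 to 0.24) and Cox8a by -0.02 (-0.20 to 0.16). Cox7a2l, which is known for joining complexes III and IV into supercomplexes, differed by -0.03 (-0.25 to 0.20).

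Cox5a, a subunit on the matrix side of the enzyme, shows how a difference can be regular and very small. It read 12.537, 12.525 and 12.533 in control and 12.597, 12.591 and 12.590 in knockout. The groups did not overlap and the spread within each was far below the gap (SD 0.0062 and 0.0035, n = 3 each). The difference was 0.06, or 1.04-fold, with an interval of -0.10 to 0.23 and an unadjusted p of 0.413. Limma draws each gene's spread toward that of all probe sets, so its test does not rest on the SD of 3 arrays alone.

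Cox7c was the general subunit with the largest negative value. It read 6.99, 6.85 and 6.88 in control and 6.71, 6.67 and 6.88 in knockout (difference -0.15, interval -0.36 to 0.06, limma adjusted p = 0.912). This is dim for the group, since the mean level of the 10 general subunits ran from 12.27 to 12.4 over the arrays. A still dimmer probe set of Cox7c, with a mean of 5.45, below the median probe set at 6.02, differed by -0.40 (unadjusted p = 0.0064 in limma). The mean of its probe sets, which includes both, differed by -0.28. All of these values rest on dim probe sets.

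The tissue isoforms of complex IV had 6 of 7 members with higher values and a median of 0.080. Cox4i2, the isoform known from lung and for its response to low oxygen, read 6.32, 6.02 and 6.32 in control and 6.34, 6.40 and 6.44 in knockout. The groups did not overlap, by a margin of a few hundredths, and control 2 was the low array (difference 0.18, interval -0.07 to 0.42, unadjusted p = 0.130 in limma). The testis isoforms Cox6b2, Cox7b2 and Cox8c differed by -0.17 (interval -0.48 to 0.15), 0.08 (-0.11 to 0.28) and 0.04 (-0.19 to 0.27). Cox7b2 stayed between 3.67 and 3.92 on all arrays, below the median probe set at 6.02.

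The heart and skeletal muscle isoforms Cox6a2 and Cox8b varied more between arrays than any other complex IV member. Cox6a2 read 8.88, 9.47 and 9.22 in control and 9.62, 8.48 and 9.69 in knockout (difference 0.08, interval -0.67 to 0.83). Cox8b read 7.61, 7.87 and 7.78 in control and 8.43, 7.25 and 8.34 in knockout (difference 0.25, interval -0.43 to 0.93). In both genes knockout 2 was the lowest of the 6 arrays while knockout 1 and 3 were the highest. Without knockout 2 the differences were 0.47 for Cox6a2 and 0.63 for Cox8b, both at an unadjusted p under 0.05 in limma and neither past the adjusted threshold. Without control 1, knockout 1 or knockout 3 the Cox6a2 difference was -0.08, -0.10 and -0.13, and the Cox8b difference was 0.18, 0.04 and 0.08, so size and, for Cox6a2, direction rest on single arrays. The list of 20 skeletal muscle genes, all of them measured, had mean levels of 10.41, 11.06 and 10.66 in control and 10.77, 10.09 and 11.03 in knockout, and 18 of the 20 were lowest in knockout 2. Its summed level on the linear scale was 47560, 70860 and 54090 in control and 62530, 37020 and 68740 in knockout. Knockout 2 was thus the array with least muscle transcript for the list as for both isoforms. Across genotypes the list had 5 genes with higher and 15 with lower values and a median of -0.095, with the contractile giants Ttn at -0.41 and Neb at -0.34, none with an unadjusted p under 0.05. With the list's mean per array as a covariate in limma the difference was 0.17 for Cox6a2 (unadjusted p = 0.209) and 0.33 for Cox8b (unadjusted p = 0.103), against 0.08 and 0.25 without it.

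Cox7a1, the muscle and brown fat isoform, read 5.99, 5.53 and 5.70 in control and 5.77, 5.69 and 5.92 in knockout, and knockout 2 did not stand apart. Its difference was 0.05 (interval -0.26 to 0.36). Of 10 measured genes of the brown fat list 6 were higher and 4 lower in knockout (median 0.028), with the transcription factor gene Ebf2 at -0.68 (unadjusted p = 0.0173, adjusted p = 0.909 in limma). Ucp1, the uncoupling protein that defines the tissue, lay between 3.71 and 4.23 on all arrays, below the median probe set.

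**Figure D2:**
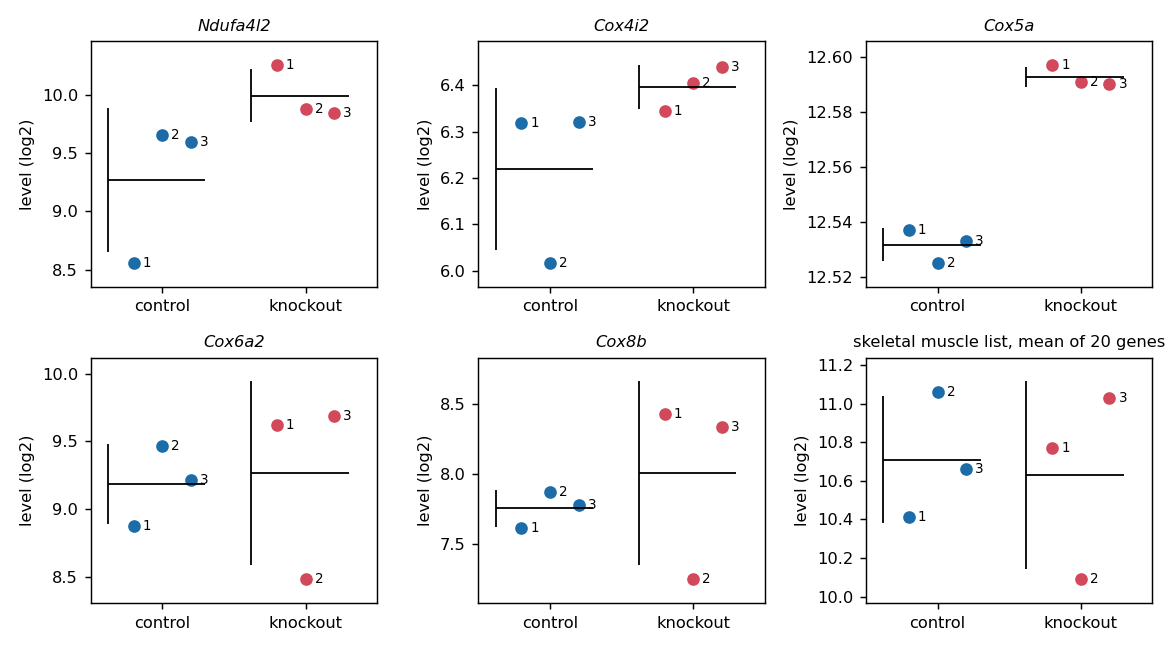
Level (log2, vertical axis, a separate range in each panel) on every control and knockout array of Ndufa4l2, Cox4i2, Cox5a, Cox6a2 and Cox8b and the mean of 20 skeletal muscle genes; points are arrays with their replicate number, horizontal lines group means and vertical lines 1 SD. Ndufa4l2, Cox4i2 and Cox5a do not overlap between groups, the last over a range of only 12.525 to 12.597, and Cox6a2, Cox8b and the muscle mean are lowest in knockout 2.

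Complex V had 8 members with higher and 9 with lower values and a median of -0.0026. Atp5a1, the alpha subunit of the catalytic head, read 13.14, 13.16 and 12.92 in control and 13.05, 12.94 and 12.87 in knockout (difference -0.12, interval -0.35 to 0.11, limma adjusted p = 0.925). The catalytic beta subunit Atp5b, with 13.44, 13.52 and 13.28 against 13.39, 13.49 and 13.33, differed by -0.01 (interval -0.23 to 0.21). Both overlapped between genotypes. The central-stalk subunit Atp5d differed by 0.09 (-0.12 to 0.29). The 3 genes Atp5g1, Atp5g2 and Atp5g3, which encode the same mature ring subunit behind different import sequences, differed by 0.09 (-0.15 to 0.33), -0.02 (-0.24 to 0.21) and -0.02 (-0.21 to 0.17).

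The 16 assembly factors split into 8 higher and 8 lower, with a median of -0.0012. Ndufaf6, a complex I assembly factor, read 8.53, 8.15 and 8.38 in control and 8.21, 8.19 and 8.19 in knockout (difference -0.15, interval -0.40 to 0.10, limma adjusted p = 0.917). The copper chaperone gene Cox17 differed by 0.12 (-0.20 to 0.43), the heme A synthase gene Cox15 by 0.06 (-0.13 to 0.26), and Cox20, which guides the assembly of a core complex IV subunit, by 0.001.

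A total of 4 members lie on chromosome 15, as Fzd6 does, where in a mixed background strain sequence can differ between groups around a mutant allele. Cox6c, the nearest of them, read 13.29, 13.04 and 13.31 in control and 13.22, 13.14 and 13.21 in knockout (difference -0.02, interval -0.25 to 0.20). Ndufb9, Ndufa6 and Atp5g2 differed by 0.01, 0.03 and -0.02.

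Probe sets other than the one read for each gene reached further below 0 and less far above it. There were 99 of them in 57 genes, of which 69 had the sign of the probe set used. Their differences ran from -0.40 to 0.21, beside -0.17 to 0.72 for the probe sets used. In 10 of the 99 the groups did not overlap, near the 11.6% of all probe sets. An unadjusted p under 0.05 was found for 5 of the 99, near the 5.21% of all probe sets and so no result about the members. They were dim, with lower values in knockout: 1 of Atp5g2 (-0.35), 1 of Cox7c, 2 of Ndufab1 (-0.25 each) and 1 of Ndufb8 (-0.26). None passed the adjusted threshold (lowest adjusted p = 0.909 in limma).

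Where the members did move together was from array to array, within both genotypes. Over the 98 members the median deviation from a gene's mean was 0.135, -0.160 and 0.010 in control arrays 1 to 3, and 0.076, -0.080 and 0.012 in knockout arrays 1 to 3. The same medians over all 18193 genes lay between -0.015 and 0.010, but normalising the arrays to a common distribution holds these near 0. Among the members, control 1 and knockout 1 were thus the high arrays and control 2 and knockout 2 the low ones. Of the members, 76 were highest in control 1 or knockout 1, beside 7971 of all 18193 genes, and 65 were lowest in control 2, beside 4262. Control 1 was above control 2 in 86 members and knockout 1 above knockout 2 in 80. The members are brighter than most genes (mean level in control 1 of 11.2, beside 7.139 over all genes). Genes of like brightness were not compared, so the pattern is not shown to be particular to the members.

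The pattern was not equally clear in the 6 groups. The median deviation in control 1 and control 2 was 0.153 and -0.186 for complex I, 0.149 and -0.162 for complex III, 0.105 and -0.151 for complex V and 0.179 and -0.208 for the assembly factors. In knockout 1 and knockout 2 these groups had 0.093 and -0.094, 0.060 and -0.114, 0.084 and -0.068, and 0.149 and -0.089, in the same order. Complex IV had 0.085 and -0.039 in control 1 and 2, and knockout 1 (0.027) was no higher than knockout 3 (0.027). Complex II departed from the pattern, with control 3 (-0.037) below control 2 (-0.014) and knockout 3 (0.059) above knockout 1 (0.013). The 76 measured genes of the mitochondrial ribosome had the same shape, with 0.194, -0.174 and -0.008 in control and 0.083, -0.064 and -0.006 in knockout. Of these, 67 were highest in control 1 or knockout 1. Assembly factors outside the rule also had a low control 2 (0.139, -0.110 and -0.076 in control). Other mitochondrial lists did not. In control the citric acid cycle had 0.149, -0.0005 and -0.123, and the carriers and porins 0.113, 0.013 and -0.034. The list of mitochondrial biogenesis had 0.080 in control 2, its highest array.

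This spread touches each comparison between genotypes. Set within replicate numbers, 27 of 98 members were higher in knockout for number 1, 85 for number 2 and 48 for number 3, with median differences of -0.047, 0.073 and -0.002. Without control 2 only 24 members were higher in knockout, and without knockout 1 only 28. The median SD of the members was 0.168 in control and 0.107 in knockout, beside 0.127 and 0.126 over all genes, and 82 members had the larger SD in control. The direction of the members' median therefore rests on which arrays are counted.

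Some other measures moved with the array numbers as well, and some did not. The median deviation of the skeletal muscle list was 0.378 in control 2 and -0.577 in knockout 2. That of the suprabasal epidermis list was -0.244 in control 1 and 0.493 in knockout 1. Markers of dermal fibroblasts had median deviations of -0.136, 0.256 and 0.120 in control and -0.537, 0.217 and 0.153 in knockout, so that, like the vessel markers, they were lowest in array 1 within each genotype, where the members were highest. Across genotypes both lists were lowest in knockout 1, while the members were highest in control 1. A probe set at the 3′ end of Gapdh minus one at the 5′ end, a measure of RNA degradation, was -0.126, -0.071 and 0.017 in control and -0.120, -0.122 and -0.056 in knockout. For Actb it was 0.347, 0.327 and 0.450 in control and 0.366, 0.342 and 0.432 in knockout, lowest in array 2 of both genotypes. The part of cell makeup and of RNA quality in the array pattern was not tested.

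**Figure D3:**
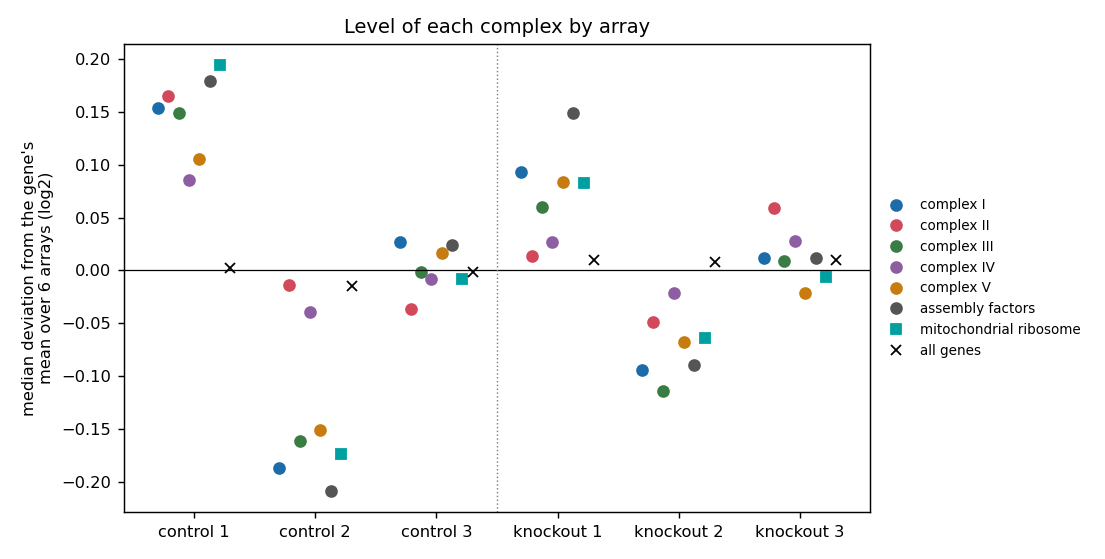
Median deviation of a gene from its mean over the 6 arrays (log2, vertical axis) on each control and knockout array (horizontal axis); circles are the complexes and assembly factors, squares the mitochondrial ribosome and crosses all genes. Members are high in control 1 (0.135 over all 98) and low in control 2 (-0.160), and to a lesser degree high in knockout 1 and low in knockout 2. All genes stay between -0.015 and 0.010, where the normalisation of the arrays holds them.

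Since the members moved together over the arrays, their promoters were searched for motifs of factors known to act on respiratory chain genes. These were GCGCATGCG, the site of nuclear respiratory factor NRF1, CCGGAAG, bound by ETS factors such as GABPA (also called NRF2), and AAGATGGCG, bound by YY1. Each was searched on both strands in RefSeq promoters of GRCm38.p6, running from 250 bases before a start site to 50 after it, and none of the 3 contains another, though matches may overlap in a sequence. A promoter was found for 80 of the 98 members. The NRF1 motif was present in 9 of the 80 (11.2%), beside 3.1% of 14368 measured genes and 1.95% of all 27025 genes of the table. The ETS motif was present in 23 (28.7%, beside 15% and 9.93%), and the YY1 motif in 8 (10%, beside 2.54% and 1.64%). Any of the 3 was present in 33 members, or 41.2%, beside 19.3% and 12.7%. The mean GC content was 58.4% for the members, 58.5% for measured genes and 53.8% for all.

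The array pattern was of the same size with and without a motif. The 33 members with a motif had median deviations of 0.142 in control 1 and -0.168 in control 2, and 27 were highest in an array numbered 1. The 47 without had 0.141 and -0.151, and 37 were highest there. Between genotypes the medians were -0.0026 and 0.016. A match of letters is a description and not a measured site.

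**Figure D4:**
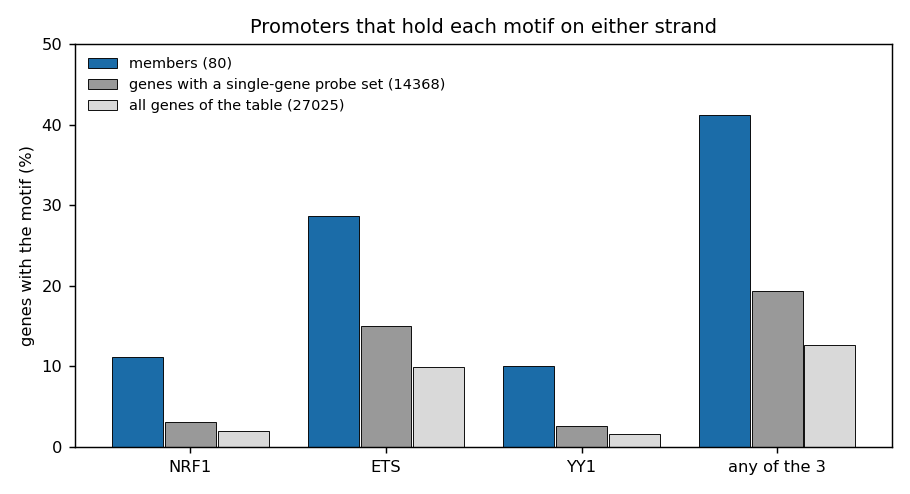
Share of genes (percent, vertical axis) whose promoter holds the NRF1, ETS or YY1 motif on either strand, for 80 members, 14368 measured genes and 27025 genes of the RefSeq table. Members have the highest bar for each motif, with 41.2% for any of the 3 against 19.3% of measured genes.

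Promoters are shown for a member with the NRF1 and ETS motifs, 1 with YY1 and ETS, 1 with YY1 alone, and the muscle isoform Cox8b with none. Having none is not particular to Cox8b, since it holds for 47 of the 80 members, among them the broadly expressed Cox7a2. Each promoter is printed 5′ to 3′ on the minus strand of GRCm38.p6, with motif matches in capitals and the start site at position 251. They lie at chr5:115348909-115349208 for Cox6a1, chr16:84834927-84835226 for Atp5j, chr3:51408906-51409205 for Ndufc1 and chr7:140900397-140900696 for Cox8b.
Cox6a1: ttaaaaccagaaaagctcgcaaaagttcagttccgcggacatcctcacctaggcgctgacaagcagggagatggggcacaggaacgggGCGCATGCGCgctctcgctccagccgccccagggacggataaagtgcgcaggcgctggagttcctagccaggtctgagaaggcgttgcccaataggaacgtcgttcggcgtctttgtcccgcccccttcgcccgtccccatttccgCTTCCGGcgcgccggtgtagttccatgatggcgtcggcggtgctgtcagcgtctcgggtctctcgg
Atp5j: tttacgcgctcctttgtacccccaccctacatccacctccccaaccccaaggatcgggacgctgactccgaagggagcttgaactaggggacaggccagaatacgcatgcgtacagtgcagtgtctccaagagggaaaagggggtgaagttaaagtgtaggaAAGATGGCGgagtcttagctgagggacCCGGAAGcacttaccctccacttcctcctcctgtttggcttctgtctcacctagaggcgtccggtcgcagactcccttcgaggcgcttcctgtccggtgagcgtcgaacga
Ndufc1: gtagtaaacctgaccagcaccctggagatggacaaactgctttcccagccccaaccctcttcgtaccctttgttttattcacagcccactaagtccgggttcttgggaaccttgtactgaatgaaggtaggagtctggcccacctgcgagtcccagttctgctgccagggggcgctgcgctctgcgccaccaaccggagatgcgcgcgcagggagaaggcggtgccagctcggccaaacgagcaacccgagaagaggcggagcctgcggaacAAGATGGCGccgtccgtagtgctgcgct
Cox8b: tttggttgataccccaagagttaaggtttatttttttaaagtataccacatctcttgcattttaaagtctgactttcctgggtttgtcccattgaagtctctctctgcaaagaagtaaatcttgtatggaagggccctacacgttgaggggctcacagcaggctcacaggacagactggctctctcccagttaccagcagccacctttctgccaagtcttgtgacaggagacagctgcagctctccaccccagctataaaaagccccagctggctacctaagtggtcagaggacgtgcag

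In the Cox6a1 promoter the NRF1 motif matches at positions 89 and 90, on opposite strands that overlap, and the ETS motif at 235 on the opposite strand. Cox6a1 read 13.59, 13.59 and 13.66 in control and 13.56, 13.67 and 13.66 in knockout, with its highest array in knockout 2, so it did not share the array pattern of most members. Atp5j, a subunit of the stalk that holds the catalytic head in place, has the YY1 motif at 163 and the ETS motif at 190. It read 12.58, 12.39 and 12.59 in control and 12.51, 12.47 and 12.56 in knockout (difference -0.008, interval -0.21 to 0.20), with array 2 lowest in both. In Ndufc1, a membrane-arm subunit of complex I, the YY1 motif lies after the start site, at 273. It read 12.34, 12.07 and 12.34 in control and 12.33, 12.09 and 12.32 in knockout (difference -0.003, interval -0.27 to 0.26), again with array 2 lowest in both.

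The genes of these factors and of mitochondrial biogenesis had mostly lower values. Of 13 measured on a list of 14, 10 were lower and 3 higher in knockout, with a median of -0.091 beside 0.0070 over all genes, and none had an unadjusted p under 0.05 in limma. Nrf1 read 7.97, 7.73 and 7.56 in control and 7.55, 7.55 and 7.56 in knockout (difference -0.20, interval -0.46 to 0.06). Gabpa differed by -0.12 (-0.31 to 0.07) and Yy1 by -0.11 (-0.32 to 0.10). Tfam, which packages mitochondrial DNA and takes part in its transcription, differed by -0.11 (-0.34 to 0.12). The coactivator gene Ppargc1a, at dim levels of 4.024 to 4.474, differed by 0.22 (-0.02 to 0.47).

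Neighbouring pathways were described in the same way. Of 12 measured genes of the citric acid cycle 7 were higher and 5 lower (median 0.0068), with Dlst, a subunit of 2-oxoglutarate dehydrogenase, at -0.19 (unadjusted p = 0.0375, adjusted p = 0.909 in limma) and Dld at -0.45. Of 13 glycolytic genes 9 were higher and 4 lower (median 0.038), led by the hexokinase gene Hk1 at 0.41 and Aldoc at 0.23. The mitochondrial ribosome had 43 genes higher and 33 lower (median 0.0050), with Mrpl50 at -0.22 and Mrps26 at 0.10. Among 24 further assembly factors whose symbols lie outside the rule, 16 were higher and 8 lower (median 0.041), with Sco1 at -0.21 and Sdhaf1 at 0.16. The carriers and porins had 2 genes higher and 4 lower, with the ADP/ATP carriers Slc25a5 at 0.12 and Slc25a4 at -0.09. Of 5 respiratory genes outside the rule 4 were higher, among them Higd1a at 0.14 and Atpif1, the ATP synthase inhibitor, at 0.11. The mitochondrial gene ND5, the single one of mitochondrial DNA with a probe set here, differed by -0.05 (interval -0.31 to 0.21). None of these genes passed the adjusted threshold.

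The lists of other cell types of the skin had larger medians than the members. The suprabasal epidermis list had 12 of 13 genes with higher values and a median of 0.345, with 8 at an unadjusted p under 0.05, among them the cornified envelope genes Ivl at 1.02 and Cnfn at 1.25. The basal list had 6 of 8 higher (median 0.228, Krt15 at 0.30 and Krt14 at 0.31). Fibroblast genes had a median of -0.033 (Pdgfra -0.32, Dpt 0.16), vessel genes -0.180 (Pecam1 -0.32, Tek -0.18) and erythroid genes -0.248. The erythroid list split into 3 higher and 3 lower, with the embryonic globin genes Hbb-bh1 at -0.52 and Hbb-y at -0.50, both at an unadjusted p under 0.05, and the heme synthesis gene Alas2 at 0.53 and the anion exchanger gene Slc4a1 at 0.37. Each of these differences failed the adjusted threshold, and their part in the members' values was not tested.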

How the data were processed

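The log2 values used here were made by the authors with RMA (background subtraction, quantile normalisation across arrays, 1 summary per probe set) and used as deposited; RMA is named, with no version, in the submitters' processing notes. The log base is an inference from the range of 2.39 to 14.8. RMA forces a common distribution on the arrays, which would hide a change of most genes one way. Detection was not called.

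Of 45101 probe sets 64 array controls were dropped; of the 45037 tested, 34945 carried 1 platform symbol, 932 several and 9160 none. All 98 members matched the RefSeq gene table. For 41 members there was 1 probe set, and for 47 the one used was of a kind (_s, _x or _a) that can read several transcripts or related genes. limma 3.58.1 (lmFit, then eBayes, with two-sided p and no covariate, in R 4.3.3) gave differences, intervals and p, adjusted by Benjamini-Hochberg across the 45037. The method was tested on simulated arrays with independent noise and planted changes larger than the difference of any member. That test does not bear on differences as small as most members had, or on arrays that vary together. Plots used matplotlib 3.10.9.

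The members and lists were chosen with earlier results of these data known. Named genes are Fzd6; per complex the member of highest level and the 3 of smallest p; isoform genes of complex IV, Ndufa4 and the ring subunit; core catalytic subunits; members whose groups do not overlap; and the 2 genes of smallest p per list. Chosen outside it, after values were seen, were Uqcrc2, Atp5j, Ndufc1, Ndufb4, the chromosome 15 members, Ucp1, Adipoq, the factor genes, Alas2, Slc4a1 and members named for other probe sets.

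Deviations from group means correlated between same-numbered arrays at 0.568, 0.359 and 0.124, each above 0.1, though no label says what the numbers mark. A fit with the numbers as a block was therefore run as an alternative. The differences, intervals and p-values given are unpaired unless the block is named. Alternatives were an intensity trend, a filter on dim probe sets, further quantile normalisation, centring, array weights, the replicate block, the muscle list as a covariate, other probe sets per gene, and each array left out.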

Additional observations from a re-analysis of the deposited data

How the results depend on the processing

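The count of members past the adjusted threshold was 0 in limma under every alternative run, with 1 member at an unadjusted p under 0.05 when all arrays were used. With the numbers as a replicate block that count was 1 again (Ndufa4l2, unadjusted p = 0.030, adjusted p = 0.379), and the paired fit changed no call among the members. The count was 0 with array weights, 2 with the mean of all probe sets of a gene (Ndufa4l2 and Cox7c) and 3 with the brightest plain probe set, which leaves 79 members (Ndufa4l2, Cox7c and Ndufb8). In these settings 7.94%, 5.18% and 5.21% of everything tested had an unadjusted p under 0.05. Leaving out arrays in turn gave 0 to 2: 0 without knockout 1 or knockout 3, and 2 without control 2 (Ndufa4l2 and Ndufaf6) or knockout 2 (Cox6a2 and Cox8b). The share over all probe sets then ran from 2.97% (without control 2) to 6.41% (without knockout 1). None of these counts is a result about the members.

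Members whose groups did not overlap numbered 3 with all arrays, 7 with the gene mean, 6 with plain probe sets and 5 to 21 with an array left out (21 without control 2). They numbered 17 without both arrays of number 1, which was chosen after seeing the data. Fewer arrays make separation easier, so these counts are not on 1 scale. The share over all probe sets was not taken for these alternatives, so their counts are no result about the members. The count of members without overlap has no value of its own under the trend, weights, block or covariate fits. Members with higher values, 56 with all arrays, ranged from 24 to 82 with an array left out, so that count depended on the arrays used. The median difference ranged from -0.066 to 0.070, within the spread between replicates. Single members changed sign in up to 36 of 98 cases when an array was left out and in 12 with centring, all for differences that had not passed the threshold. With 3 arrays a group, and signal over background unknown, the interval of a member reached a median of 1.20-fold to either side, narrower for some members and wider for others.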
